A study of Lates calcarifer with 8 samples.

Results

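The transcripts described here are the 300 of 60080 on a custom array for the Asian seabass (Lates calcarifer) whose probe lay on 6 spots of every array; each of the other 59780 probes lay on 1 spot. They were chosen by counting how often each probe name occurs among the 61580 spots that are not controls. The rule used no measured signal and had no borderline case, though earlier results of these data were known when it was set. The array was hybridised with labelled RNA from whole brains, pituitary attached, of 4 females with F3-stage ovaries and 4 males with M3-stage testes. All fish were adults of 5 years with no treatment recorded, each fish had an array of its own, and the fish is the replicate. Nothing in the labels says how the fish were related or kept. The p-values set a sex difference against the spread between arrays of one sex. That spread holds labelling and hybridisation as well as the fish, and it rests on these 8 fish alone.

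The Asian seabass is a protandrous hermaphrodite, a fish that usually matures first as a male and later changes to a female. In fishes the brain and pituitary control this change and the seasonal growth of the gonads through gonadotropin-releasing hormone and the gonadotropins, and brain aromatase makes oestrogen locally in glial cells. The 6 spots of a repeated probe meet the same labelled RNA on an array, so their scatter measures the error from spot to spot. The files give a target name of the form SBRGG and a number for each member, 1 target per probe, with no gene name. Brain, pituitary or other marker genes could therefore not be looked up among the members, and no function is given to any of them.

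Signals are given as log2 of the processed spot intensity relative to the 75th percentile of the same array, so that a level of 0 is the signal at that percentile and 1 unit is a 2-fold difference. That percentile was between 93.1 and 128.6 intensity units over the 4 female arrays and between 105 and 123 over the 4 male arrays, and the number of saturated spots was 0 on each of them. The arrays lay on 1 slide in 2 rows of 4. Females 1 and 2 and males 1 and 2 were in slide row 1 and the others in row 2. Differences are female minus male throughout.

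The repeated probes reported some of the brightest signals of the array, and few were dim. The median level of the 300 members was 5.53, with quartiles of 1.27 and 8.75, against a median of -2.50 and quartiles of -4.29 and -0.25 for the probes on 1 spot. A level above 8 was reached by 95 members (31.7%) and by 155 probes on 1 spot (0.259%). Of the 100 brightest probes of the array 37 were members, and of the 1000 brightest 151, but none (0) was among the 10 brightest. The members nevertheless covered a wide range, from -4.88 to 11.3. In whole-brain RNA, a low level can come from few cells of a type or from little RNA per cell, which cannot be told apart.

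**Figure D1:**
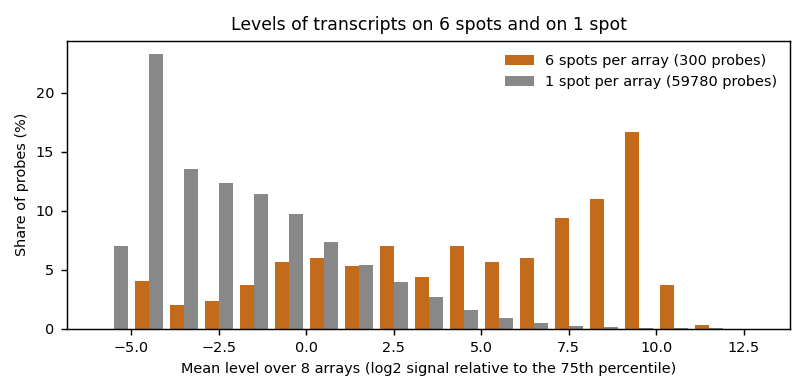
Share of probes (%) by mean level over the 8 arrays, in steps of 1 log2 unit, for the 300 probes on 6 spots and the 59780 probes on 1 spot. The members peak between 9 and 10, where hardly any other probe lies, and the probes on 1 spot peak between -5 and -4.

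The brightest member was SBRGG_07638, with levels of 11.30, 10.79, 11.40 and 11.38 in females 1 to 4, against 11.39, 11.19, 11.68 and 11.26 in males 1 to 4. The sexes overlapped, and female 2 was the lowest of the 8. SBRGG_03232 averaged 10.97, SBRGG_07064 10.45, SBRGG_08277 10.42 and SBRGG_00225 10.40 over the 8 arrays. Between the fourth and the fifth of these the difference in order is far smaller than their spread between fish of one sex, which was 0.26 for SBRGG_08277 and 0.16 for SBRGG_00225 (SD within sex). Levels of different probes also depend on how well each probe binds, so their order does not rank the amounts of RNA.

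At the dim end, 277 members (92.3%) were well above background on all 8 arrays, against 40.9% of the probes on 1 spot. A member counted as well above background on an array where at least 0.5 of its kept spots did. A further 4 members were so on 4 to 7 arrays, 4 on 1 to 3 arrays and 15 (5%) on none (0), where 28.5% of the probes on 1 spot were on none. The 15 had mean levels from -4.88 to -3.57, and only 36 of their 720 spot readings were well above background. Among members seen on all arrays the dimmest were SBRGG_00504 at -2.17, SBRGG_05271 at -2.01, SBRGG_32270 at -1.98, SBRGG_19173 at -1.90 and SBRGG_05555 at -1.86. Single spots of such dim probes did not always agree: SBRGG_05555 was well above background on 19 of 24 spot readings in females and 19 of 24 in males.

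The target numbers of the members were also uneven. Numbers up to 5000 held 100 of the 300 members (33.3%) and 8.05% of the probes on 1 spot, and numbers over 35000 held 6 members (2%) and 43.8% of the probes on 1 spot. The median level of the members was 8.75 for numbers up to 5000 and 4.76 for those over 5000 and up to 10000, against -0.96 and -1.51 for the probes on 1 spot with such numbers. Members were thus brighter, by median, than other probes within these stretches of numbers too. What the numbering follows is not given in the sources used here.

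The groups were set up to compare female with male brains, and no member differed past the threshold. Of the 281 members tested (those well above background on at least 4 arrays), 0 had an adjusted p under 0.05 in limma, fitted and adjusted over all 32850 tested probes, of which 0.0761% passed. The smallest adjusted p of a member was 0.904. At an unadjusted p under 0.05 limma found 7 members (2.49%), 1 higher in females and 6 higher in males, beside 4.99% of all tested probes. That count moved between 4 and 21 with the processing: it was 21 after normexp background correction (beside 4.16% of all tested probes), 16 with slide row as a block (beside 6.25%), 15 without male 2 (beside 4.19%), 4 without female 1 (beside 5.97%) and 4 without male 4 (beside 4.2%). All 4 females lay above all 4 males in 5 members (1.78%), beside 1.53% of all tested probes, and all 4 males above all 4 females in 8 (2.85%), beside 2.27%.

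The estimated differences were small. The fitted differences of the 281 members ran from -0.92 (SBRGG_00235, which was -0.44 without female 2) to 0.54, none (0) exceeded 2-fold, and 3 (1.07%) exceeded 1.5-fold, where 2.60% and 11% of the tested probes on 1 spot did. The 95% confidence interval of a member had a median half-width of 0.46, between 0.32 and 1.05, against 0.59 for the probes on 1 spot, whose values are not averages of spots. It lay wholly inside 2-fold for 248 members (88.3%) and wholly inside 1.5-fold for 109 (38.8%), against 66.4% and 21.6% of the tested probes on 1 spot. These shares are not matched for level, and the variances behind them are drawn towards a value shared by all tested probes. Above level 8 the interval lay inside 1.5-fold for 26.3% of members and 35.5% of probes on 1 spot. Inside 2-fold it was 82.1% against 71.0% there, with median half-widths of 0.50 against 0.52. At lower levels the members had the larger share inside 1.5-fold. The interval reached a 2-fold difference in 33 members and a 1.5-fold one in 172.

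**Figure D2:**
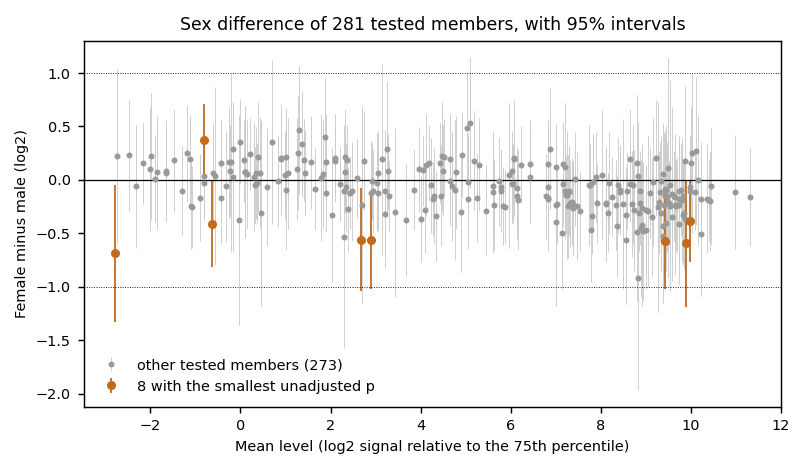
Female minus male difference (log2) of each of the 281 tested members against its mean level, with 95% confidence intervals from limma as bars and dotted lines at 2-fold. The 8 members with the smallest unadjusted p are in orange; 7 of their intervals lie on one side of 0 and 1 includes it, and bright members lie mostly below 0 on this scaling.

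The member with the smallest p was SBRGG_00341. Its levels were 8.72, 9.17, 9.48 and 9.15 in females 1 to 4, against 9.69, 9.53, 9.88 and 9.71 in males 1 to 4. Every male lay above every female. The difference was -0.57 ± 0.20 (SE; limma, adjusted p = 0.904). One of its spots, near the edge of the array, read 6.37, 6.68, 9.0 and 6.73 in females 1 to 4, against 9.74, 9.28 and 8.43 in males 1, 3 and 4 (marked as an outlier in male 2), while the first spot read between 9.54 and 9.75 in females and between 9.51 and 10.16 in males. Taken from 1 spot at a time, the sex difference of this member ran from -1.95 to -0.19. With edge spots of members left out, an alternative chosen after seeing the data, the mean difference was -0.28, with the median of spots it was -0.23, and in the authors' table -0.18.

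SBRGG_08084 was the only one of the 7 with a higher mean in females. Its levels were -0.74, -0.55, -0.55 and -0.62 in females 1 to 4, against -1.10, -0.93, -0.93 and -1.0 in males 1 to 4. Females and males did not overlap, and the 4 fish of each sex lay close together (SD 0.09 within sex, n = 4 each). The difference was 0.38 ± 0.15 (SE; limma, adjusted p = 0.939), with a 95% interval from 0.04 to 0.71. This SE is wider than the SD alone would give, because limma draws each variance towards that of all tested probes. All 6 spots of SBRGG_08084 taken singly gave a higher mean in females, by 0.17 to 0.73. The difference was 0.37 in slide row 1 and 0.38 in row 2. It was 0.37 after quantile normalisation and 0.35 in the authors' table, but 0.17 after normexp.

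SBRGG_15611 read 2.54, 2.16, 2.98 and 2.75 in females 1 to 4, against 3.10, 3.14, 3.33 and 3.13 in males 1 to 4. The means of the males were tightly grouped and all above those of the females, which spread over 0.82 units. Its spots did not agree in females 1 and 2, where they read from 1.93 to 2.92 and from 0.76 to 2.98. In females 3 and 4 they read from 2.82 to 3.09 and from 2.61 to 2.98. The difference was -0.56 ± 0.20 (SE; limma, adjusted p = 0.933), -0.76 in slide row 1 and -0.36 in row 2. Taken from 1 spot at a time it ran from -1.07 to -0.28. SBRGG_00699 read 2.23, 2.87, 2.22 and 2.24 in females and 3.26, 2.72, 2.88 and 2.94 in males. Here female 2 alone overlapped the males, and the difference was -0.56 ± 0.21 (SE; limma, adjusted p = 0.939).

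The other 4 of the 8 also had lower means in females. SBRGG_33763, a dim transcript that was well above background on 2 female and 4 male arrays, differed by -0.69 ± 0.28, and its 6 spots taken singly gave differences from -1.74 to 0.13 (SE; limma, adjusted p = 0.939). SBRGG_00238 and SBRGG_00311, both at a level near 10, differed by -0.59 ± 0.26 and -0.39 ± 0.17, and SBRGG_31795, which just missed an unadjusted p of 0.05, by -0.41 ± 0.18 (SE; adjusted p = 0.939 for each, limma). After normexp the difference of SBRGG_33763 was -0.17 and that of SBRGG_31795 -0.16. For SBRGG_00238 it was -0.61 after normexp and with median scaling, -0.45 after quantile normalisation, -0.30 in the authors' table and -0.23 with the median of spots. For SBRGG_00311 it was -0.39 after normexp, -0.41 with median scaling, -0.23 after quantile normalisation, -0.15 in the authors' table and -0.21 with the median of spots.

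Across members, a sex difference read from 1 spot was uncertain. The 6 differences obtained from the 6 spots of a member, each spot taken alone, had a median SD of 0.21 and a median range of 0.57. All 6 had the sign of the mean in 86 of the 281 members, and in 34 members no more than 3 had it. With 1 spot alone the median half-width of the 95% interval was 0.52 on average over the 6 choices of spot, against 0.46 with all spots.

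On the main scaling the sign of the difference went with the level of the member. Of the 95 members above level 8, 84 had a lower mean in females (median difference -0.19), of the 118 between levels 2 and 8 it was 78 (-0.08), and of the 68 at or below level 2 it was 19 (0.07). Over all 281 the median was -0.09, with 100 members higher in females and 181 higher in males, beside a median of -0.03 over all tested probes. Without male 3 the members' median was -0.02. The probes on 1 spot above level 8 had a median difference of -0.15, and 74.2% of them were higher in males, beside 88.4% of the members. Between levels 2 and 8 their median was -0.07, with 63.4% higher in males, beside 66.1% of the members. Over all levels it was 54.1%, beside 64.4%. Lower means in females above level 2 were thus shared by probes of both kinds. After quantile normalisation the median of the 281 was 0.024, with 153 higher in females and 128 higher in males, and in the authors' table, whose arrays share 1 distribution, it was 0.025 with 158 higher in females and 123 higher in males. Above level 8 the members were then nearly evenly split, with 42 higher in females and 53 higher in males after quantile normalisation, and 46 and 49 in the authors' table. Of the 68 members at or below level 2, 49 were higher in females on the main scaling, after quantile normalisation and in the authors' table, and 47 with median scaling and 46 after normexp. On the main scaling the tested probes on 1 spot at that level had a median difference of -0.014, and 52.0% of them were higher in males. No direction can be given for the members as a set. The cause was not tested.

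The arrays themselves also stood apart at high signal. Relative to each probe's mean over the 8 arrays, members above level 8 had median deviations of -0.20, -0.20, 0.02 and 0.06 in females 1 to 4, against 0.11, -0.10, 0.39 and 0.14 in males 1 to 4. Male 3 was the highest, and females 1 and 2 were the lowest. For the 64 members on all arrays under level 2 the deviations were -0.03, 0.00, 0.18 and 0.00 in the females and -0.02, -0.10, 0.08 and -0.08 in the males. In male 2 the bright and the dim members deviated alike, whereas in females 1 and 2 and in male 3 the bright members deviated by more. The probes on 1 spot above level 8 deviated by 0.33 in male 3 and 0.14 in male 4, close to the bright members, and by -0.06 and 0.0079 in females 1 and 2.

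**Figure D3:**
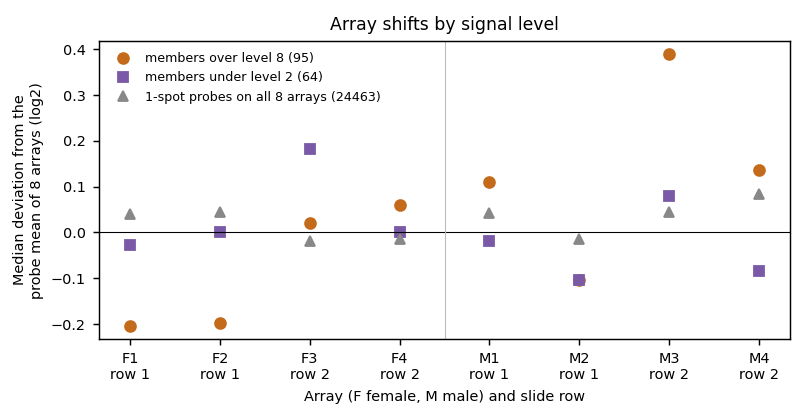
Median deviation (log2) of each array from the probe means of the 8 arrays, for members above level 8, members under level 2 and probes on 1 spot, females left and males right, with the slide row under each array. Bright members run from -0.20 in female 1 to 0.39 in male 3, and the probes on 1 spot, which are of all levels, stay within 0.083 of 0.

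Slide row moved with the members' levels as well. Of the 277 members on all 8 arrays, 224 (80.9%) were higher in row 2, and the median difference between the rows was 0.18. Of the probes on 1 spot on all 8 arrays, which are of all levels, 51.3% were higher in row 2, with a median of 0.012. Those above level 8 had median deviations of -0.06, 0.0079, -0.03 and -0.02 in row 1 (females 1 and 2, males 1 and 2). In row 2 (females 3 and 4, males 3 and 4) they had 0.01, 0.03, 0.33 and 0.14, so bright probes on 1 spot were also higher there. With the median of spots the members' median was 0.12. In 30 of the 281 tested members (11%) all 4 arrays of row 2 lay above all 4 of row 1, beside 5.13% of all tested probes. The reverse held for 2 (0.712%), beside 3.95%. After quantile normalisation the members' median was 0.03 and 153 of the 277 (55.2%) were higher in row 2. Of the probes on 1 spot 47.9% were then higher there, with a median of -0.017. All 4 arrays of row 2 then lay above all 4 of row 1 in 17 of the 277 (6.14%), beside 4.04% of the probes on 1 spot. Rows and the order of the fish numbers in the labels coincide, and what set the rows apart was not tested.

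Variation between fish of one sex was described by the SD within sex. It had a median of 0.25 over the 281 tested members, against 0.37 over all tested probes. After normexp the order over all levels was the reverse, with 0.232 for the members against 0.203 for the tested probes on 1 spot. Within spans of level the members then had the lower median. It was 0.138 against 0.189 at or below level 2, 0.205 against 0.290 between levels 2 and 8, and 0.304 against 0.337 above level 8. On the main scaling the median was 0.25 over the 277 on all 8 arrays, with quartiles of 0.18 and 0.34 and a range from 0.06 to 0.76. Females and males were alike in this: the median SD was 0.22 in each sex, and 126 of the 277 members had the larger SD in females. Between levels 2 and 4 the median SD was 0.20 for members against 0.31 for probes on 1 spot, and above level 8 it was 0.29 against 0.31. A member's value is a mean of up to 6 spots, which the others are not: read from 1 spot, the median SD of the tested members was between 0.269 and 0.336 over the 6 choices of spot. Outlier-marked readings were also left out unevenly, 2.04% of those of members and 0.0617% of those of probes on 1 spot. With them kept, the members' median SD was 0.259.

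Some transcripts barely differed between the 8 fish. SBRGG_07216 read -0.84, -0.84, -0.77 and -0.81 in females 1 to 4, against -0.76, -0.86, -0.84 and -0.69 in males 1 to 4, an SD within sex of 0.06. SBRGG_14049 read between 2.38 and 2.55 in females and between 2.23 and 2.35 in males, SBRGG_15433 between 3.15 and 3.38 in females and between 3.31 and 3.40 in males, and SBRGG_00018 between 6.62 and 6.83 in females and between 6.84 and 7.01 in males. In SBRGG_14049 the females, and in SBRGG_00018 the males, all lay above the other sex, by means of 0.19 and 0.17. Both differences missed the threshold (limma, adjusted p = 0.939 for each), and that of SBRGG_00018 was -0.03 after quantile normalisation. That of SBRGG_14049 was 0.11 with outlier-marked spots kept.

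Spots of 1 probe on 1 array had a median SD of 0.19 over the 277 members and 8 arrays. Array by array the median was 0.21, 0.38, 0.12 and 0.13 in females 1 to 4, against 0.25, 0.23, 0.12 and 0.25 in males 1 to 4. Female 2 had the widest scatter, with an SD above 0.5 in 38.6% of the members, and male 3 the narrowest, with 4.69%. By slide row, the medians lay between 0.21 and 0.38 in row 1. In row 2 females 3 and 4 and male 3 had the smallest, but male 4 had 0.25. For the error of an array mean, the spot variance over the number of kept spots was averaged over the arrays, which gives arrays with wide scatter more weight. This error had a median SD of 0.14, equal to a median of 35.1% of the variance within sex. Each spot lies at the same place on all 8 arrays. A spot that is kept and reads low or high alike on all of them adds to this error. It adds nothing to the variance within sex. The share can therefore be too high, and the part alike on all arrays was not separated. Spot SDs of single members given below are likewise the square root of the mean spot variance over the arrays. Their median over the 281 tested members was 0.34, and they are not on the scale of the 0.19. For 97 of the 277 members the share of this error in the variance was over 50%, and for 28 nothing was left once the error was subtracted. The SD that remained, which still holds labelling and hybridisation, had a median of 0.19. It can be too low where spots read alike on all arrays.

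The scatter was one-sided. A spot was counted as low if it read over 2-fold below the median of its probe's spots on that array. Of the kept spot readings of the 277 members 235 of 2258 (10.4%) were low within 10 rows or columns of the array's edge and 236 of 10772 (2.19%) elsewhere, while 5 and 17 lay as far above. At least 1 low spot on at least 1 array was seen in 186 members. Among the members above level 8 this share was 84.2%, between levels 2 and 8 it was 55.1%, and at or below level 2 it was 64.1%. Low spots were seen most often in bright members. Away from the edge, 2.45%, 6.12%, 3.06% and 3.36% of spot readings were low in slide row 1 (females 1 and 2, males 1 and 2). In row 2 (females 3 and 4, males 3 and 4) 0.221%, 0.222%, 0.295% and 1.86% were low. What set the rows apart in this was not tested.

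**Figure D4:**
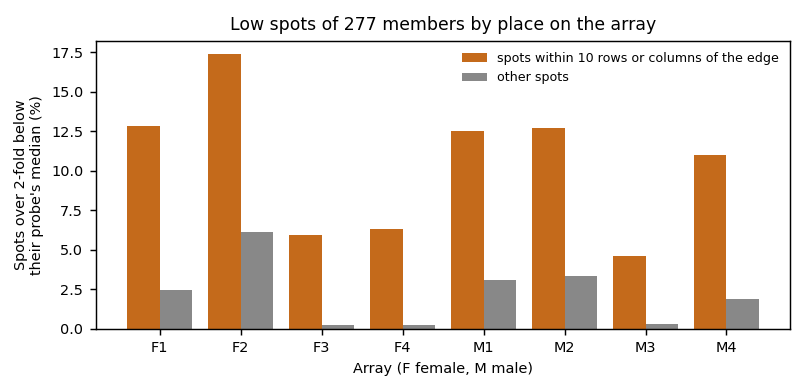
Share (%) of kept spot readings over 2-fold below the median of their probe on the same array, for the 277 members well above background on all arrays, by place on the array. Edge spots exceed the others on every array, and among spots away from the edge female 2 has the highest share, 6.12%, and female 3 the lowest, 0.221%.

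In some variable transcripts the spots of an array moved together, and in others they did not. SBRGG_30572, which had one of the 3 smallest spot SDs (0.11), was 3.45, 4.40, 2.86 and 2.29 in females 1 to 4, against 3.08, 2.94, 3.15 and 3.02 in males 1 to 4. Its 5 kept spots in female 2 read between 4.33 and 4.47 and its 6 spots in female 4 between 2.05 and 2.43, so the females spread over 2.11 units while the males stayed within 0.22. With spots 1 to 3 and spots 4 to 6 kept apart, its deviations from the sex means correlated at r = 0.997 (a description over 8 arrays, on which both sets of spots met the same labelled RNA). Its mean difference between the sexes was 0.20 ± 0.40 (SE; limma, adjusted p = 0.971), 0.91 in slide row 1 and -0.52 in row 2, and it was -0.19 without female 2.

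SBRGG_07342 and SBRGG_17148 also moved on nearly all of their spots. SBRGG_07342 read 1.09, 2.08, 2.28 and 2.68 in females 1 to 4, against 2.11, 1.62, 3.29 and 3.23 in males 1 to 4, and the 4 arrays of slide row 2 lay above the 4 of row 1. Its SD within sex was 0.76, or 0.64 when the median of the spots was used. SBRGG_17148 read -0.92, -1.06, 0.28 and 0.81 in females and -0.24, 0.06, 0.03 and 0.74 in males, with an SD of 0.71, or 0.70 by the median. Spots 1 to 3 and spots 4 to 6 correlated at r = 0.94 for SBRGG_07342 and 0.95 for SBRGG_17148. Neither separated the sexes.

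For the other 4 of the 6 most variable members, all above level 8, the spots of an array did not agree. SBRGG_00235 had the highest SD within sex, 0.76, with levels of 8.33, 6.92, 9.14 and 9.09 in females 1 to 4, against 9.35, 9.01, 9.68 and 9.11 in males 1 to 4. Female 2 stood lowest, and the mean was also lower in females, with a difference of -0.92 ± 0.46 (SE; limma, adjusted p = 0.939). Without female 2 the difference was -0.44, with the median of spots -0.67 and in the authors' table -0.47. In female 2 a pair of spots printed next to each other, in array rows 292 and 293 of column 14, read 4.21 and 4.80, against 9.09 and 8.64 for 2 other spots of the same probe. With the median of the spots the SD fell to 0.49.

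SBRGG_16202 averaged between 8.35 and 10.04 in females and between 8.79 and 10.40 in males, and its spots differed within an array by an SD of 1.22. One edge spot of it read 7.79 in female 1 and 6.16 in male 4, while other spots of those arrays reached 10.14 and 10.54. Spots away from the edge were low as well. Those in array rows 105, 134 and 307 read 6.61, 8.45 and 8.78 in female 1, and the first of them read 7.55 in male 1. SBRGG_00314 (spot SD 1.24) had an edge spot in array row 1 that read 6.14, 6.51, 10.28 and 6.74 in females 1 to 4, against 6.43, 6.26, 10.15 and 8.86 in males 1 to 4. That spot was low on the 5 arrays where it read under 7 and level with the rest in female 3 and male 3. Other spots were low on some arrays too: the spot in array row 13, away from the edge, read 7.36 in female 2 and 7.68 in male 4. SBRGG_00240 had an SD within sex of 0.71, or 0.37 by the median of its spots. The widest spot scatter was that of SBRGG_00237, with an SD of 1.47. Its spot in array row 4 and column 2 read 2.84 in female 2 and 5.39 in female 4. A spot of it away from the edge read 9.75 and 9.90 there. In male 1 its spots in array rows 335 and 372, also away from the edge, read 6.52 and 7.99.

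**Figure D5:**
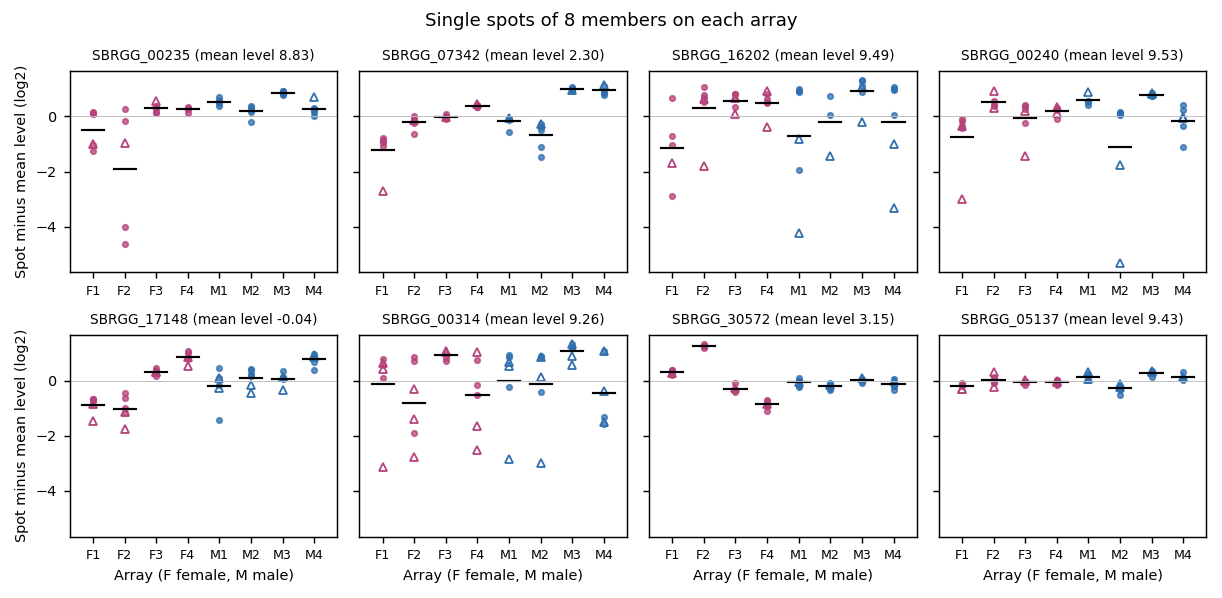
Each spot of 8 members, as log2 signal minus the member's mean level, by array (females 1 to 4 left, males 1 to 4 right). Filled circles are spots away from the edge, open triangles are spots within 10 rows or columns of it, and black bars are the array means; the first 6 panels are the members with the highest SD within sex and the last 2 have small spot SDs. In SBRGG_30572 all spots of an array move together. In SBRGG_00314 and SBRGG_16202 the spots of an array spread over more than 2 units on several arrays, and spots away from the edge are among the low ones.

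A tight set of spots did not by itself go with large differences between fish. SBRGG_05137, at a level of 9.43, had a spot SD of 0.11 and read 9.23, 9.46, 9.39 and 9.38 in females 1 to 4, against 9.57, 9.16, 9.71 and 9.56 in males 1 to 4. SBRGG_01267, with a spot SD of 0.09, read between 5.88 and 6.10 in females and between 5.86 and 6.30 in males. Both sets overlapped between the sexes. Over the 277 members, the SD within sex from spots 1 to 3 and that from spots 4 to 6 correlated at a Spearman rho of 0.39, as a description over probes that share arrays. The deviations from spots 1 to 3 and from spots 4 to 6 correlated at a median r of 0.62 per member, above 0.9 in 38 members and below 0.5 in 114. The SD within sex correlated with the spot SD at rho = 0.59 when the spots were averaged and at rho = 0.19 when their median was taken. The SD within sex of averaged spots holds part of the spot error, so a positive rho was in part built in.

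The brightest of the 19 members left out of the test was SBRGG_12473, well above background on 3 female arrays and 0 male arrays. It read -2.71, -2.49, -2.41 and -2.50 in females 1 to 4, against -3.21, -2.88, -2.78 and -3.07 in males 1 to 4. The females all lay above the males, near the background of the array, and 15 of 24 spots in females and 7 of 24 in males were well above background. SBRGG_20055 was so on 0 female and 2 male arrays, with means of -3.41 in females and -2.91 in males. SBRGG_10492, with means of -3.23 and -3.38, was so on 1 female and 0 male arrays. Without a filter on dim probes all 300 members entered the fit, and none (0) passed in limma, beside 0.0183% of all probes, with 7 at an unadjusted p under 0.05, beside 4.01%.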

How the data were processed

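Each array's scanner table holds spot intensity values from Agilent Feature Extraction 10.7.1.1, background-subtracted and detrended within the array, per the file headers. A second table that the authors deposited gives log2 values whose 8 columns share 1 distribution; the submitters' processing notes name Partek, with its version and settings not given in the sources used here. The other marks used (well above background, outlier, saturated, spot row and column) are the scanner software's, per the file headers. Per the labels, 100 ng of total RNA was labelled with Cy3.

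Control spots (1319) were left out. Spots marked as non-uniform or population outliers, 2.04% of member readings and 0.0617% of the others, were set to missing. The log2 processed signals of a probe were averaged, and the array's log2 75th percentile was subtracted. The sexes were compared with limma 3.58.1 in R 4.3.3 (lmFit, eBayes, two-sided, Benjamini-Hochberg over all 32850 tested probes, threshold 0.05). The fit was checked on simulated arrays with independent noise and changes of 2-fold or more. No member differed by as much, so the check does not cover differences of the members' size. Python 3.11.15, pandas 2.3.3, numpy 2.4.6 and matplotlib 3.10.9 made tables and plots. The number of arrays limits the precision.

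Alternatives were normexp (offset 50, on median signals, since the tables hold no mean signal), quantile and median scaling, other filters, the median of spots, outlier-marked spots kept, single spots, spots 1 to 3 or 4 to 6, a variance trend with robust fitting, weighted arrays, a block for slide row or for slide column, the authors' values, and arrays left out. The members and the naming rule were chosen with earlier results of these data known. Named were the 8 smallest p for sex, the 5 highest and lowest levels, the 6 largest and 4 smallest SDs within sex, the 3 largest and smallest spot SDs, and the 3 brightest untested members. Single spot values printed, and the edge margin of 10 rows or columns, were chosen after the values were seen.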

Additional observations from a re-analysis of the deposited data

Results flagged for a closer look

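In 10 of the 84 groups of 4 arrays examined, 1 array stood far from the other 3. Chance marks about 1 group in 20 where groups are independent and not chosen on their values. Most of these groups belong to members named for their values, and all come from the same 8 arrays. That rate is therefore no benchmark for the 10. Among the females, SBRGG_00699 was high in female 2 at 2.87 (the others lay between 2.22 and 2.24). SBRGG_00238 was high in female 3 at 10.27, against 9.29 to 9.44 in the other females. Single low spots entered those other means: 7.44 in female 1, 5.74 in female 2 and 7.35 in female 4. The remaining kept spots of those arrays read between 9.15 and 10.45, against 10.05 to 10.46 in female 3. SBRGG_07638 was low in female 2 at 10.79, against 11.30 to 11.40, and SBRGG_16202 was low in female 1 at 8.35, against 9.80 to 10.04. The kept spots of SBRGG_07638 in female 2 ran from 9.97 to 11.36, and those of SBRGG_16202 in female 1 from 6.61 to 10.14. Among the males, SBRGG_15611 was high in male 3 at 3.33, against 3.10 to 3.14 in the other males. SBRGG_07064 was low in male 2 at 9.97, against 10.62 to 10.68, and SBRGG_15433 was low in male 2 at 3.31, against 3.39 to 3.40. In male 2 the edge spots of SBRGG_07064 in array rows 4 and 317 read 8.47 and 9.17. Its other spots there read between 10.48 and 10.60. SBRGG_00504 was low in male 1 at -2.53, against -2.18 to -2.13.

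A pair of array-wide values also stood apart. The 75th percentile of signal in female 2 was 93.1 intensity units, against 126 to 128.6 in the other females. The median spot SD of the members in male 3 was 0.117, against 0.230 to 0.247 in the other males. Females 3 and 4, in the same slide row as male 3, had 0.123 and 0.131, while male 4 in that row had 0.247.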

How the results depend on the processing

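No member passed the threshold (0) under any of the 30 alternatives, 1 of which was added after seeing the data, and the smallest adjusted p under them was 0.362, from spot 2 alone (limma). The 7 members at an unadjusted p under 0.05 in limma (beside 4.99% of all tested probes) became 21 after normexp (beside 4.16%). They were 14 with intensity trend and robust estimation (beside 4.89%) and 16 with slide row as a block (beside 6.25%). The count was 4 with the median of spots and 4 from spot 3 alone (beside 4.98% each). It was 11 from spot 5 alone and 11 from spots 4 to 6 (beside 5.00% each). Without 1 array it was between 4 and 15. It was 4 without female 1 (beside 5.97%), 4 without male 4 (beside 4.2%) and 15 without male 2 (beside 4.19%). The median sex difference of -0.09 was 0.024 after quantile normalisation, 0.025 in the authors' table and between -0.14 and -0.02 without 1 array. The median SD within sex of 0.25 was 0.22 after quantile normalisation, 0.20 with the median of spots, 0.33 from spot 1, 0.29 from spot 2, 0.29 from spot 5, 0.34 from spot 6, 0.28 from spots 1 to 3, 0.21 with slide row as a block, 0.18 in the authors' table and 0.22 without female 2 and male 1. The median spot SD of 0.19 was between 0.169 and 0.204 without 1 array. It was 0.263 after normexp and 0.222 with outlier-marked spots kept. Without female 2 and male 1 it was 0.159, and without edge spots 0.143. Of 959 sex differences of the 32 named and tested members under the alternatives, 95 had the opposite sign, in 20 members, and none (0) of the 959 was past the threshold; among the 8 members of smallest p it was 1 of 239. Main values stand in brackets. SBRGG_33763 (-0.69) was 0.13 from spot 3. SBRGG_03232 (-0.11) was 0.36 from spot 3, 0.00073 from spot 5, 0.040 with array weights, 0.031 without female 2 and male 1 and between -0.22 and 0.055 without 1 array. SBRGG_07064 (-0.056) was 0.086 after quantile normalisation, 0.0035 with outlier-marked spots kept, 0.22 from spot 5, 0.11 from spot 6, 0.076 from spots 4 to 6, 0.073 with array weights, 0.11 in the authors' table, 0.13 without female 2 and male 1 and between -0.22 and 0.077 without 1 array. SBRGG_08277 (-0.20) was 0.048 from spot 6. SBRGG_00225 (-0.19) was 0.034 in the authors' table. SBRGG_00504 (0.15) was -0.25 from spot 2, -0.079 from spot 3 and -0.099 from spots 1 to 3. SBRGG_05271 (0.10) was -0.0064 after normexp, -0.57 from spot 2, -0.11 from spot 3, -0.18 from spots 1 to 3, -0.078 without edge spots and between -0.068 and 0.25 without 1 array. SBRGG_32270 (0.22) was -0.058 without female 2 and male 1. SBRGG_19173 (0.011) was -0.014 after normexp, -0.0056 after quantile normalisation, -0.0086 with median scaling, -0.070 with the median of spots, -0.098 from spot 2, -0.33 from spot 4, -0.065 from spots 4 to 6, -0.0095 in the authors' table, -0.018 without female 2 and male 1, -0.0029 without edge spots and between -0.064 and 0.11 without 1 array. SBRGG_05555 (0.071) was -0.027 after normexp, -0.11 from spot 1, -0.65 from spot 3, -0.38 from spot 5, -0.044 from spots 1 to 3, -0.031 in the authors' table, -0.38 without edge spots and between -0.047 and 0.26 without 1 array. SBRGG_07342 (-0.53) was 0.12 from spot 2. SBRGG_16202 (0.11) was -0.21 with the median of spots, -0.32 from spot 2, -0.77 from spot 3, -0.42 from spot 4, -0.035 from spots 1 to 3, -0.19 without female 2 and male 1, -0.37 without edge spots and between -0.10 and 0.51 without 1 array. SBRGG_00240 (-0.049) was 0.10 after quantile normalisation, 0.98 from spot 2, 0.17 from spot 3, 0.12 from spots 1 to 3 and between -0.43 and 0.21 without 1 array. SBRGG_00314 (-0.25) was 0.32 from spot 5, 0.024 with array weights and between -0.60 and 0.065 without 1 array. SBRGG_07216 (-0.029) was 0.24 from spot 6, 0.0055 from spots 4 to 6 and between -0.053 and 0.0019 without 1 array. SBRGG_15433 (-0.15) was 0.079 from spot 6. SBRGG_00237 (-0.29) was 0.17 with the median of spots, 0.60 from spot 5, 0.53 from spot 6, 0.37 from spots 4 to 6, 0.062 in the authors' table and 0.17 without edge spots. SBRGG_01267 (-0.037) was 0.065 after quantile normalisation, 0.033 from spot 5, 0.083 in the authors' table and between -0.097 and 0.049 without 1 array. SBRGG_30572 (0.20) was -0.24 from spot 1, -0.11 with array weights, -0.17 without female 2 and male 1 and between -0.19 and 0.52 without 1 array. SBRGG_05137 (-0.14) was 0.017 after quantile normalisation and 0.014 in the authors' table. The cause of these changes was not tested. Dim members near background and the small number of arrays limit what could be seen. No paired analysis was possible because the labels give the fish no shared numbers across the sexes.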
